A study of Mus musculus with 4 samples.

Results

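Thbs1, Tinagl1 and Lama5 are 3 genes for proteins of the extracellular matrix, and each had 1 row in the expression tables, so that they made up 3 of 406 named rows. The rows were found by gene ID and belong to Thbs1-201, Tinagl1-203 and Lama5-203, the annotated transcripts whose lengths they carry. The genes were chosen by their matrix function and from the difference between groups that their RPKM values and reads showed in these same libraries, so their contrast is described below without a test. The libraries came from NIT-1, an established line of β cells of the NOD/Lt mouse strain, used at passages 20 to 25 and transfected with 8.3 µg of plasmid. The control group received the plasmid pRP[Exp]-CMVE>EGFP and the ERRγ group the plasmid pRP[Exp]-EGFP >ERR[gamma], which carries the orphan nuclear receptor ERRγ. Each group had 2 libraries, called biological replicates in the labels, and all were of 1 cell line. The series asked which genes ERRγ acts on in such cells.

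Thrombospondin 1, the product of Thbs1, is a matricellular protein: it is secreted into the matrix and signals to cells there without building the scaffold. It binds the receptors CD36 and CD47 and can activate latent TGF-β. Basement membranes are thin sheets of laminin and type IV collagen under epithelia and around vessels, and in islets β cells lie against the basement membrane of the capillaries. Lama5 encodes the laminin α5 chain, a subunit of laminin-511 and laminin-521, and Tinagl1 encodes a secreted glycoprotein related to tubulointerstitial nephritis antigen that is found at basement membranes.

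The libraries held 16605943 to 18769899 reads, and the listed rows took 6.26% to 7.62% of them. Esrrg-201, the main listed transcript of the transfected gene, had 23 and 0 reads in the controls and 12398 and 7262 reads in the ERRγ libraries. Esrrg-203, the other listed transcript of that gene, had 0 and 29 reads in the controls and 676 and 3436 reads in the ERRγ libraries. None of 17 β cell marker genes had a listed row, so the labelled cell type could not be checked against its markers. Among markers of other cells, 1 of 8 fibroblast and stellate genes was listed (Acta2, a smooth muscle actin), and none of the other islet, endothelial, leukocyte or exocrine genes. The Acta2 row had 154 and 186 RPKM in the controls and 104 and 106 RPKM with ERRγ (edgeR, adjusted p = 0.0458, and 0.0501 to 0.187 with 1 library left out). Of 8 genes kept to follow RNA quality, 2 were listed, in 3 rows. In control replicates 1 and 2 and ERRγ replicates 1 and 2, Actb-201 had 3411, 3381, 2840 and 2681 RPKM. In the same order, Actb-207 had 24.1, 48.3, 20.6 and 12.5 RPKM and H1f0-201 had 215, 236, 281 and 291 RPKM. With ERRγ both Actb rows lay below both controls, as did 45.6% of named rows, and H1f0-201 lay above both, as did 41.9%. The part of these genes in the values below was not tested. In bulk RNA, fewer cells of a type and less RNA per cell cannot be told apart.

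The Lama5 row carries the length of a short transcript and not that of the laminin mRNA. Lama5 spans chr2:180176373-180225859 (GRCm38, minus strand), and its coding transcript Lama5-201 has 79 exons and 11388 nt. The listed row had a length of 734 nt, which among the annotated transcripts is that of Lama5-203, a processed transcript without an annotated reading frame that starts at 180179643. Lama5-203 consists of 4 exons, and all 734 of its bases also lie in exons of Lama5-201. It differs from the coding transcript in 1 junction, where 9 whole exons with 1292 nt are skipped and the acceptor lies inside the last exon. The 30 bases across that junction are shown because only they set the row apart from the laminin mRNA, with the junction of Lama5-201 at the same donor (180179010) for comparison. The sequences are from GENCODE M21 (GRCm38, minus strand, written 5′ to 3′), and capitals mark the bases after the junction.
Lama5-203: tagcaatgtcacaggGGGGCAGTGGGGATG
Lama5-201: tagcaatgtcacaggGGTATGGCTGTATGT
No other annotated transcript held the first junction, which joins 180179010 to 180176660, or the second, which joins 180179010 to 180178891.

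**Figure D1:**
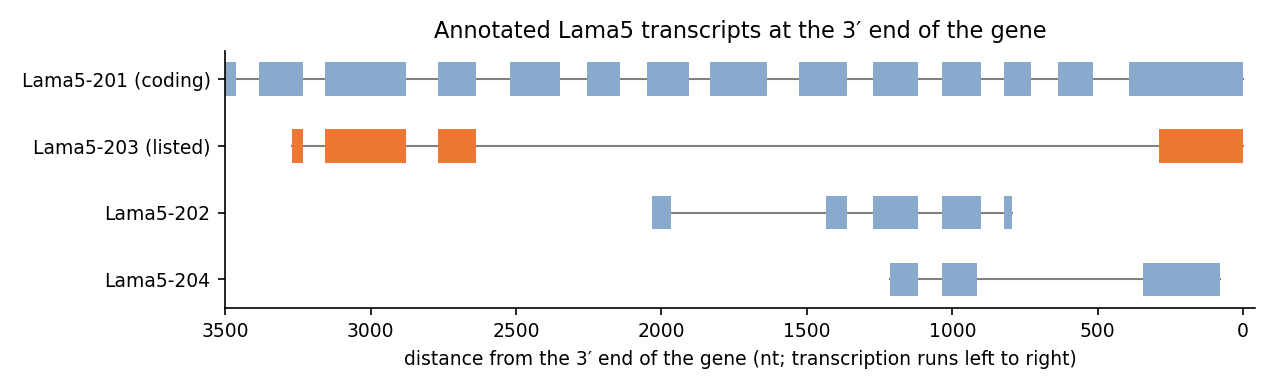
Exons of the 4 annotated Lama5 transcripts at the 3′ end of the gene, drawn to scale by their distance from its 3′ end in nt (x axis), 1 line per transcript. The listed transcript Lama5-203 (orange) has 4 exons, all within exons of the coding transcript Lama5-201, and skips 9 exons of it.

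Few reads of the Lama5 row were placed uniquely. Among windows of 151 bases, the read length in the labels, 147 of the 584 in Lama5-203 (25.2%) were in no other annotated transcript. Uniquely placed reads numbered 0 in control replicate 2, 2 in ERRγ replicate 1 and 0 in ERRγ replicate 2. That is 2 of 576 reads, or 0.347% (95% exact Clopper-Pearson interval 0.0421% to 1.25%, counting error only). Reads over the remaining windows match Lama5-201 or another transcript of the gene as well. The sources used here do not say how reads shared by transcripts were divided, and Lama5-201 has no row of its own among those analysed.

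This gap between unique sequence and unique reads was not particular to Lama5. Windows stand for single reads, although the reads came in pairs. Of 184 rows with at least 10% such windows and at least 100 reads, 75 had a unique read share within 1.5-fold of their window share. Some rows exceeded it by more, such as Gm5069-201 with 3.38 times its window share. In 55 of the 184 the unique read share was under 0.1 times the window share. Thbs1-201 did not show this gap, and Tinagl1-203 had too few windows of its own to enter this comparison. For Thbs1-201, the protein-coding transcript, 5412 of 5698 windows (94.98%) were in no other transcript, and 95.4%, 95.6%, 95.4% and 95.1% of its reads were uniquely placed in control replicates 1 and 2 and ERRγ replicates 1 and 2. The observed share thus equalled 1.00 times the window share. Its annotated partner Thbs1-202, a retained-intron transcript of 659 nt, shares 434 bases with it. Tinagl1-203, also protein-coding, has 2 windows of its own out of 1802, since 8 other transcripts of the gene overlap its exons. The coding transcripts Tinagl1-209 and Tinagl1-202 share 94.6% and 89.9% of its bases, and 19 of its 38089 reads (0.0499%) were uniquely placed. That share was 0.449 times its window share. The Thbs1 row can therefore be read as that transcript, whereas the Tinagl1 row cannot be separated from other transcripts of its gene.

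**Figure D2:**
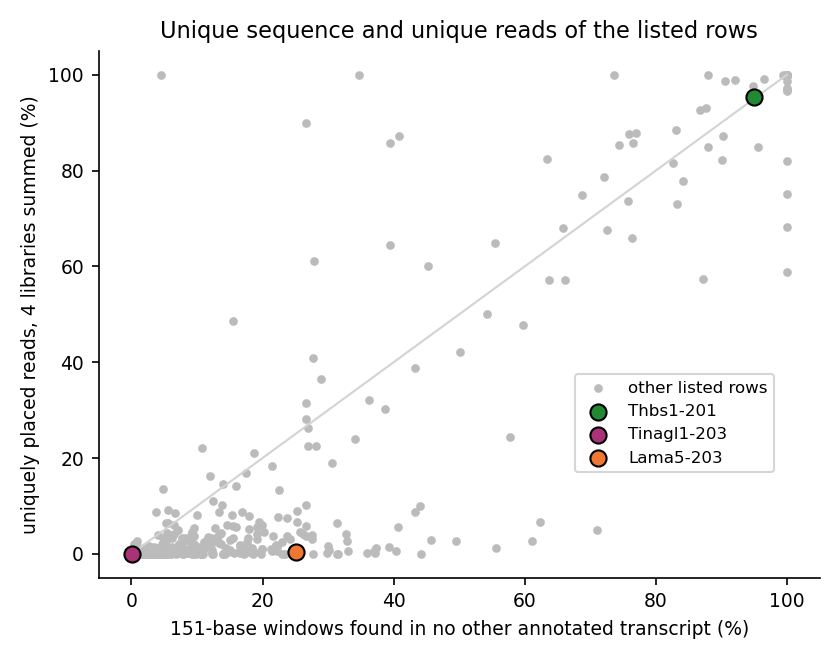
Share of uniquely placed reads over the 4 libraries in percent (y axis) against the share of 151-base windows found in no other annotated transcript in percent (x axis), 1 point per listed row and a line where both are equal. Thbs1-201 lies on the line at 94.98% of windows, Tinagl1-203 near the origin, and Lama5-203 at 25.2% of windows and 0.347% of reads.

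Thbs1 was lower in both ERRγ libraries. The gene spans chr2:118111876-118127133 (GRCm38, plus strand), and its row holds 5848 nt in 22 exons. Control replicate 1 had 271 RPKM (29735 reads) and control replicate 2 had 178 RPKM (17575 reads), against 127 RPKM (12375 reads) in ERRγ replicate 1 and 109 RPKM (11127 reads) in ERRγ replicate 2. Control replicate 1 stood well above the rest, control replicate 2 came next, and the groups did not overlap. The group means were 224 ± 65.8 RPKM in control and 118 ± 13.1 RPKM with ERRγ (SD, n = 2), a ratio of 1.90, control over ERRγ. Thbs1 reads made up 0.158% and 0.104% of all reads in the controls and 0.0745% and 0.0637% in the ERRγ libraries. Among the 406 rows it ranked 9 and 19 by reads in the controls and 23 and 24 with ERRγ.

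The controls differed in Thbs1 by more than the nearest libraries of the groups did. Control replicate 1 was 1.52 times control replicate 2, while control replicate 2 was 1.40 times ERRγ replicate 1. The ERRγ libraries differed by 1.17 times. Among 68 rows with at least 50% unique reads and at least 100 reads in a control, the controls differed by a median of 1.19 times, and Thbs1 ranked 1 of 68. In the fit over all rows with library sizes as scale, the log2 fold change of Thbs1, ERRγ over control, was −0.92 ± 0.23 (SE). It was −0.76 ± 0.23 with TMM factors, a scaling that takes the listed rows as unchanged on balance, and −0.72 ± 0.19 in DESeq2. It was −0.59 ± 0.12 without control replicate 1 and −1.20 ± 0.12 without control replicate 2. Unique reads gave −0.93 ± 0.15 with library sizes and −0.59 ± 0.17 with TMM factors. With unique reads, TMM factors and control replicate 1 left out together, the value was −0.27 ± 0.10.

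Tinagl1 was higher in both ERRγ libraries, by a small margin with close replicates. The gene spans chr4:130164454-130175122 (GRCm38, minus strand), and its row holds 1952 nt in 12 exons. Control replicate 1 had 237 RPKM (8669 reads) and control replicate 2 had 249 RPKM (8197 reads), against 310 RPKM (10062 reads) in ERRγ replicate 1 and 327 RPKM (11161 reads) in ERRγ replicate 2. Both ERRγ libraries lay above both controls. The group means were 243 ± 8.44 RPKM in control and 319 ± 12.0 RPKM with ERRγ (SD, n = 2), a ratio of 1.31, ERRγ over control. Replicates differed by 1.05 times in control and 1.06 times with ERRγ, and the nearest libraries of the groups by 1.25 times. The log2 fold change was 0.39 ± 0.07 (SE) with library sizes, 0.56 ± 0.07 with TMM factors and 0.60 ± 0.10 in DESeq2. With 19 unique reads in all, too few for the fit on unique reads, that fit gave no value for Tinagl1.

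The Lama5-203 row had few reads, and 1 control had none. Control replicate 1 had 0 RPKM (0 reads) and control replicate 2 had 9.52 RPKM (118 reads), against 18.5 RPKM (225 reads) in ERRγ replicate 1 and 18.2 RPKM (233 reads) in ERRγ replicate 2. Both ERRγ libraries lay above both controls and differed from each other by 1.02 times. For a row of this length, 3 reads in control replicate 1, a floor chosen here, correspond to 0.218 RPKM. The mean with ERRγ was 84.1 times that floor, but 1.93 times the level in control replicate 2. The log2 fold change was 1.94 ± 2.27 (SE), with an error larger than the value, and 0.94 ± 0.49 without control replicate 1. A control at 0 beside one with 100 or more reads also occurred in other rows of low unique share. It was found in 18 of 193 rows with under 10% unique reads and in 0 of 68 rows with at least 50%. The level of the coding laminin α5 mRNA cannot be told apart from that of the short transcript in this row.

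**Figure D3:**
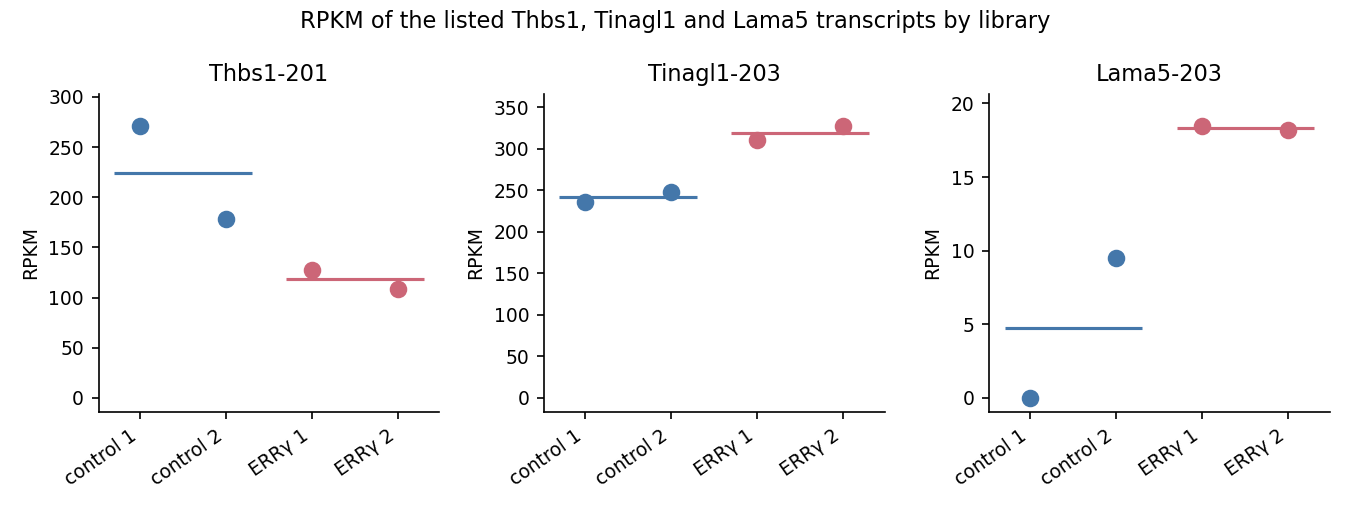
RPKM (y axis) of Thbs1-201, Tinagl1-203 and Lama5-203 in each library (points), with the group means as lines, n = 2 libraries per group. Thbs1 lies between 109 and 127 with ERRγ and between 178 and 271 in control, while both basement membrane rows are higher with ERRγ and Lama5-203 is at 0 in control replicate 1.

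**Figure D4:**
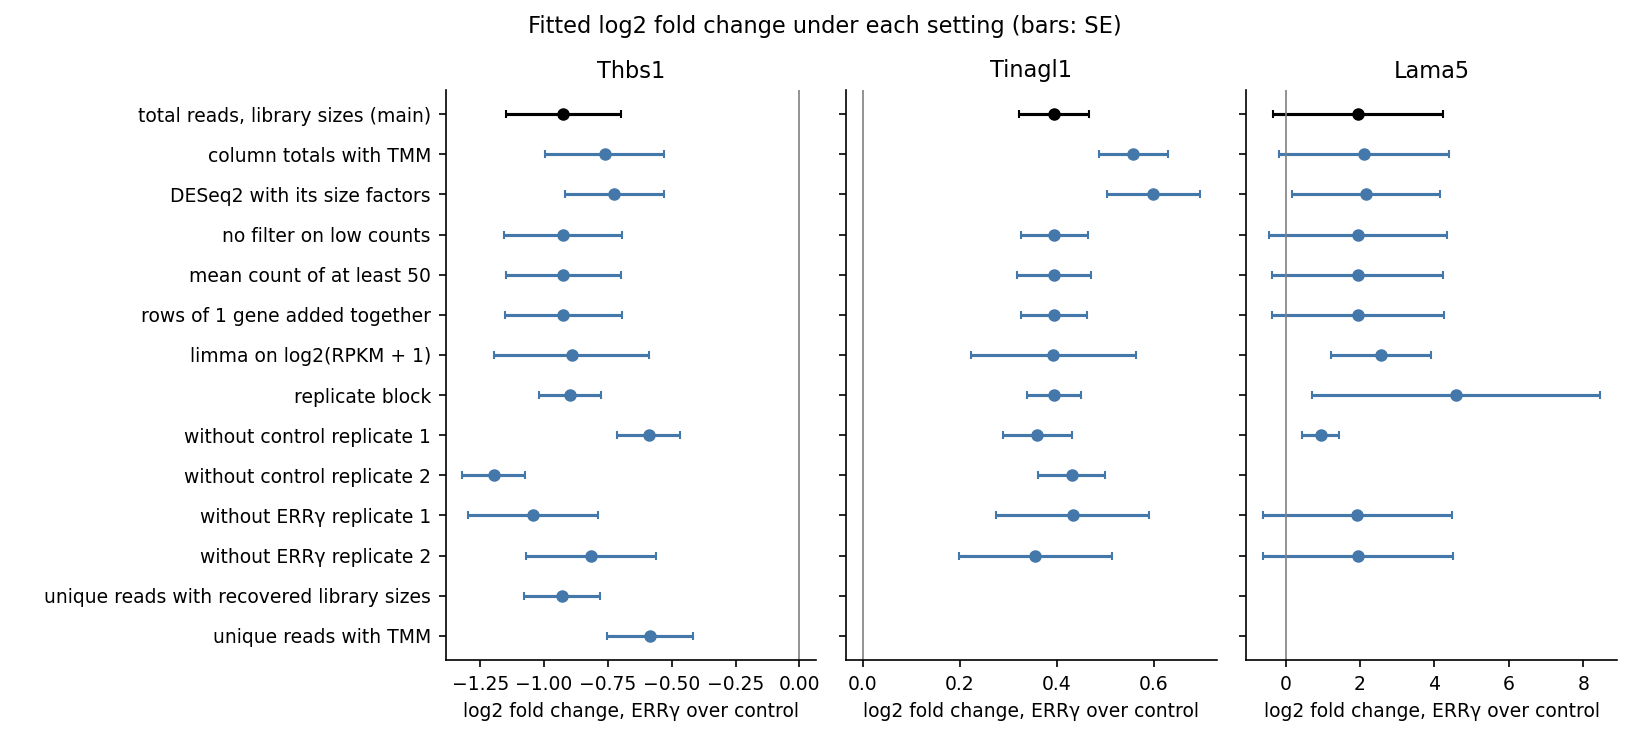
Fitted log2 fold change, ERRγ over control (x axis), of the Thbs1, Tinagl1 and Lama5 rows under each setting of reads, scaling, filter and libraries (1 line each), with bars for the SE and a line at 0. Every Thbs1 value shown is below 0 and every Tinagl1 and Lama5 value above 0, Lama5 without control replicate 2 is left out because the remaining control has 0 reads, and rows with too few unique reads have no value.

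Of the 3 rows, Tinagl1 and Lama5 thus lay above both controls, as did 41.9% of all named rows, and Thbs1 lay below, as did 45.6%. In the fit with library sizes, 6.67% of the 375 rows tested passed the threshold (25 rows, edgeR quasi-likelihood test, Benjamini-Hochberg adjusted p under 0.05), and 0 of the 3 rows was among them. Since this contrast chose the genes, nothing is read from these counts.

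The matricellular gene and the basement membrane genes were set against each other within each library, where the library size cancels. The RPKM of Thbs1 divided by the summed RPKM of Tinagl1 and Lama5 was 1.15 and 0.689 in control replicates 1 and 2 and 0.388 and 0.315 in ERRγ replicates 1 and 2. Thbs1 exceeded the basement membrane rows in control replicate 1 alone. The mean log2 ratio was 1.35 lower with ERRγ, with a pooled SD between replicates of 0.40. The sum is almost all Tinagl1, since Lama5-203 came to at most 5.95% of the Tinagl1 level. Without control replicate 1 the difference was −0.98. Because Thbs1 lay below both controls and Tinagl1 and Lama5 above both, the ratio had to be lower in each ERRγ library. That the groups did not overlap in it therefore adds nothing to the values of the rows.

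The wider matrix was thinly represented among the listed rows. Lists of matricellular, basement membrane, interstitial matrix, receptor, protease and crosslinker, and TGF-β pathway genes named 173 genes, of which 7 had a row. Thbs1 was the 1 listed gene of 31 matricellular genes, Tinagl1 and Lama5 were the 2 listed genes of 35 basement membrane genes, and 0 of 23 interstitial matrix genes had a row. No row of type IV collagen, nidogen, perlecan or another laminin chain was listed, so the partners of laminin α5 were not measured here.

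Other listed genes of these lists belong to the plasminogen system, the matrix receptors and the TGF-β pathway. Plaur encodes the urokinase receptor, which binds vitronectin and gathers plasminogen activation at the cell surface. Plaur-201 had 74.7 and 88.3 RPKM in the controls and 47.1 and 45.1 RPKM with ERRγ, and it missed the threshold (log2 fold change −0.82 ± 0.16 SE, edgeR, adjusted p = 0.0518). Of its 6722 reads, 0.431% were uniquely placed, so the row cannot be separated from other transcripts of its gene. Sdc4 encodes syndecan-4, a heparan sulfate proteoglycan that acts with integrins at focal adhesions. Sdc4-201 had 96.5 and 102 RPKM in the controls and 80.0 and 75.9 RPKM with ERRγ (log2 fold change −0.35 ± 0.09 SE, edgeR, adjusted p = 0.0537), and its sign turned with unique reads and TMM factors (0.03 ± 0.15). It was the 1 listed gene of 30 receptor genes. Smad3-202, a short transcript of a TGF-β signal transducer, had 65 and 0 reads in the controls and 0 and 9 with ERRγ and did not pass the filter on low counts. Plaur and Sdc4 thus lay below both controls, as did Thbs1 and 45.6% of all named rows.

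A further 4 genes with a part in the matrix were picked after the symbols in the tables were seen. Pcolce encodes an enhancer of procollagen processing, and Pcolce-201 had 288 and 332 RPKM in the controls and 380 and 383 RPKM with ERRγ, above both controls like Tinagl1 (log2 fold change 0.30 ± 0.09 SE, edgeR, adjusted p = 0.0812). Its replicates differed by 1.15 times in control, about as much as the nearest libraries of the groups (1.15 times). Of the 39049 reads of this row, 0.256% were uniquely placed. Htra1 encodes a secreted protease of matrix proteins. Its row Htra1-205, a processed transcript, ran from 5.14 to 56.8 RPKM in the controls and from 0.375 to 5.67 RPKM with ERRγ, so the groups overlapped. P4hb-203, from the gene for a subunit of collagen prolyl 4-hydroxylase, had 85 and 45 reads in the controls and 0 and 14 with ERRγ. Thy1-204, from the gene for a surface glycoprotein that binds integrins, had 0 reads in both controls and 22 and 24 with ERRγ.

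**Figure D5:**
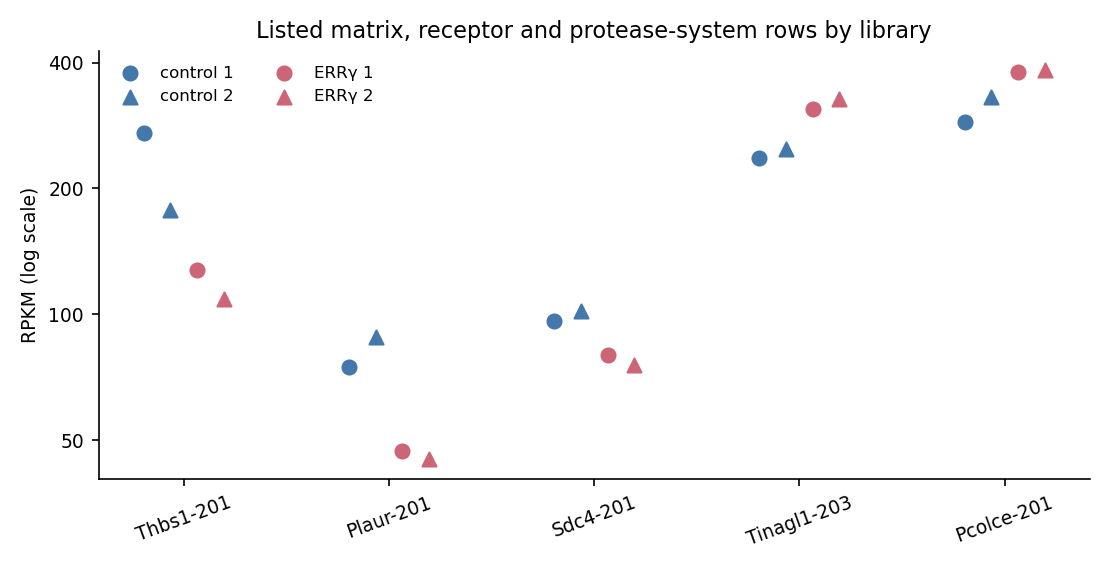
RPKM on a log scale (y axis) of 5 rows with a part in the matrix or its turnover, 1 point per library, circles for replicate 1 and triangles for replicate 2. Thbs1, Plaur and Sdc4 are lower with ERRγ and Tinagl1 and Pcolce higher, and the controls are farthest apart for Thbs1 (271 and 178 RPKM).

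The rows most like each member were found by the distance between their centred log2(RPKM + 1) values over the 4 libraries, among 405 rows with a mean of at least 1 RPKM. For Thbs1-201 the nearest was Oasl2-207 (distance 0.0762), from an interferon-induced gene, with 41.7 and 25.6 RPKM in the controls and 18.6 and 15.1 RPKM with ERRγ, followed by Gm8399-201 (0.124) and Arhgap8-207 (0.157). For Tinagl1-203 they were Maz-201, from a zinc finger factor gene (0.0454), H1f0-201, from a linker histone gene (0.0705), and Gm6181-201 (0.0744). For Lama5-203 the nearest rows were farther off, namely Dap-204 (0.760), Ctsd-201, from the gene for the lysosomal protease cathepsin D (0.772), and Ndufs6-201 (0.962). With 4 libraries these distances describe the values only. Uniquely placed reads made up 98.8% of Gm8399-201, 100% of H1f0-201 and 97.3% of Gm6181-201. The other named neighbours had from 0% (Maz-201) to 4.18% (Ndufs6-201), with 0.0885% for Oasl2-207. Their values thus rest mostly on reads that were not uniquely placed.

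The region before a start site of Tinagl1 is shown because it lies ahead of Tinagl1-202, a coding transcript whose reads cannot be separated from those of the listed row. RefSeq windows (GRCm38.p6, 250 bases before to 50 after a start) were matched for Tinagl1 (2 windows) and Lama5 (1 window). The 250 bases before the start used by Tinagl1-202 lie at chr4:130175123-130175372 on the minus strand and are written 5′ to 3′. Capitals mark a match to TGANTCA, a loose form of the AP-1 motif in which N is any base, here A.
Tinagl1: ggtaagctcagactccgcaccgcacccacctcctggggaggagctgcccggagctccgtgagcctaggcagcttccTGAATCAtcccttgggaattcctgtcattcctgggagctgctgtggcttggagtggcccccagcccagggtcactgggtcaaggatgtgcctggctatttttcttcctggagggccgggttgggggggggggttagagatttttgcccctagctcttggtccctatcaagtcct
The core ERR motif AAGGTCA, searched on both strands, was in 0 of the 3 windows of Tinagl1 and Lama5 and in 4.72% of 32851 windows of all genes. The longer form TNAAGGTCA, which contains the core, was in 1.28% of all windows and likewise in none of these 3. The loose AP-1 form TGANTCA was in 1 of the 3, at −174 from the start shown, and in 7.81% of all windows. Forms with a fixed middle base were not counted, so the match shown, with A in the middle, is not read as an AP-1 site. The other Tinagl1 window, which lies directly before the start of the listed Tinagl1-203 at 130174802, held no match to the ERR motifs or TGANTCA. That window is not printed because part of it overlaps the first exon of Tinagl1-202. The Lama5 window held no match either. It lies before the start of the coding Lama5-201 at 180225859, and not before that of the listed Lama5-203 at 180179643. A match is a run of letters and no match says only that these letters are not in these windows.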

How the data were processed

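RNA of 4 NIT-1 libraries was sequenced as 151-base read pairs, per the labels' protocols. The authors deposited 1 table per library with RPKM values and with counts of unique and total reads per row, per the file headers. The submitters' processing notes name the build mm8, with annotation, aligner and counting program not given in the sources used here. All 409 rows are the same in each table, and 3 without a gene ID, with at most 0.0332% of listed reads, were left out. Dividing total reads by RPKM gave 1 library size per table and row lengths that were whole within 0.01 nt for all 406 named rows. Of these lengths, 397 matched exactly 1 transcript of the gene in GENCODE M21 (GRCm38), whose positions are given, and no mm8 coordinates were used.

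The fit was edgeR 4.0.16 (R 4.3.3), quasi-likelihood, on total reads of all rows with the recovered library sizes and filterByExpr, for ERRγ against control, with the adjustment over all rows tested. DESeq2 1.42.0 and limma 3.58.1, the latter on log2(RPKM + 1), were alternatives. SE values of edgeR were derived from the F statistic. The fit was also run on simulated counts, only to check the code. Their spread between replicates was set far below that of these rows (common dispersion 0.534), so error rates here were not tested. An exact permutation test of 2 libraries against 2 cannot go below p = 0.333. The rule for the listed rows is not stated, and most rows separate the groups. Members and lists were chosen with earlier results of these data known. Named genes were all rows of the matrix lists, the 3 nearest rows of each member, and Esrrg, and 1 row of these lists is not reported here.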

Additional observations from a re-analysis of the deposited data

How the results depend on the processing

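No alternative that gave a value turned the sign for Thbs1, Tinagl1 or Lama5, or for the Thbs1 to basement membrane ratio. Since the groups did not overlap in these rows, leaving out 1 library could not turn it. The fits on unique reads gave no value for Tinagl1 or Lama5. Against 25 rows (4 higher, 21 lower), 1 row passed with TMM factors, without a filter, and with the replicate block, 199 in DESeq2 (108 higher, 91 lower), 42 with a mean count of at least 50, 73 with unique reads (11 higher, 62 lower) and 41 with unique reads and TMM factors (29 higher, 12 lower). Leaving out any 1 library gave 1 to 2 rows. TMM factors moved the median log2 fold change of all rows by 0.17 with total reads and by 0.35 with unique reads.

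Whether same-numbered libraries of the groups belong together was not tested. Their deviations had a correlation of −0.02 over 406 rows, which cannot settle this for a single row. Thbs1 was higher in replicate 1 than in replicate 2 of both groups. The replicate block gave −0.90 ± 0.12 (SE) for Thbs1, against an SE of 0.23 without a block, 0.39 for Tinagl1 and 4.58 for Lama5. A crossed block, added after seeing the data, gave 1 row and −0.90 ± 0.22 (SE) for Thbs1. Thbs1 was −0.59 with unique reads and TMM factors. With 1 library left out it ran from −1.20 to −0.59, with unique reads from −1.20 to −0.60, and with unique reads and TMM factors from −0.86 to −0.27 (−0.50 without ERRγ replicate 2), the last 2 added after seeing the data. Tinagl1 was 0.56 with TMM factors and 0.60 in DESeq2, and 0.36 to 0.43 with 1 library left out. Lama5 ran from 0.94 to 10.89 with 1 library left out, where the upper value is against a control with 0 reads and depends on the prior count. The log2 ratio of Thbs1 to the basement membrane rows was 1.35 lower with ERRγ, −2.73 with unique reads, which rest on 1 to 11 basement membrane reads per library, and −1.71 to −0.98 with 1 library left out.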
